A study of Mus musculus with 9 samples.

Results

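Kinesins are motor proteins that hydrolyse ATP and, for the most part, walk along microtubules. Their transcripts were described here in single mouse oocytes arrested at metaphase II, the stage at which an ovulated egg waits for sperm. The members were all genes whose symbol on the array begins with Kif and a digit, taken from rows that the platform annotation ties to exactly 1 symbol. The rule found 38 genes among 19938 named genes, on 44 rows of the array. For the 6 genes with several rows (Kif14, Kif1c, Kif26b, Kif4-ps, Kif6 and Kif7), the row whose mean over all arrays was highest stood for the gene. The annotation gives the name Kif1bp to none of these rows, so its product, a kinesin-binding protein and not a motor, is described with the partners as Kifbp.

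Each of the 9 arrays, of the Affymetrix Mouse Gene 1.0 ST design, held amplified RNA from 1 oocyte. The oocytes came from unmated ICR females, an outbred strain, aged 2 months and primed with 10 IU PMSG (pregnant mare serum gonadotropin) and, 46 h later, 10 IU hCG (human chorionic gonadotropin). In 3 oocytes RNA was not purified and the crude lysate made with the NuGEN direct lysis buffer was amplified. RNA was column-purified with the PicoPure kit in 3 oocytes and with the RNeasy kit in the other 3, and all 9 samples went through the same Ovation One-Direct amplification. The groups therefore share strain, age, hormone treatment and stage and are labelled by how the RNA was prepared, while mice of an outbred strain also differ in genotype. Each condition drew 1 to 3 cells from each of 3 mice, but which oocyte came from which mouse is not given. Whether oocytes of 1 group, or of different groups, share a mother is therefore not known. The p-values cover no more than the variation among these arrays. The comparisons ask whether the preparation of the RNA changes what a single oocyte's array reads for these genes.

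Values are log2 expression values as deposited, relative to the rest of each array, so a difference in the total RNA of an oocyte or in the yield of a kit is not measured by them. A value belongs to 1 set of probes, and the values of different genes are not an order of transcript abundance. As a working background, each array was given the level that 95% of its 1231 chemosensory receptor genes (olfactory, vomeronasal or taste) stayed under, which lay between 7.19 and 7.48. A gene was called above background on an array when its value exceeded that level. The oocyte label was checked with markers: 18 of 19 oocyte markers, such as Gdf9, Bmp15 and Zp3, lay above background on every array, with mean levels of 11.73 to 11.85 in crude lysates, 11.78 to 11.79 with PicoPure and 11.80 to 11.83 with RNeasy. Of 17 markers of the surrounding cumulus and granulosa cells, 11 (Fshr, Amh and Has2 among them) were above background on none, and their mean levels were 6.97 to 7.08 in crude lysates, 6.84 to 6.97 with PicoPure and 6.89 to 7.28 with RNeasy. The granulosa genes Foxl2 and Nr5a2 were above it on all 9. Of 10 blood and immune markers, 8 were above background on no array and Cd3e on all 9. Of 11 oviduct markers, 4 were above on no array and 4 (Krt8, Cdh1, Tppp3 and Sec14l3) on all 9, with mean levels of the list of 7.54 to 7.71 in crude lysates, 7.42 to 7.56 with PicoPure and 7.47 to 7.58 with RNeasy. In the comparison of crude lysate with purified RNA, 0 of all these markers passed the limma test, beside 1.01% of all genes. The markers are too few for a count of 0 to set them apart from that share. Their part in the results was not tested.

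A metaphase II oocyte holds a microtubule spindle built without centrioles. Several kinesin families act on it in dividing cells: kinesin-5 pushes the poles apart, kinesin-13 and kinesin-8 control microtubule ends, chromokinesins tie chromosome arms to microtubules, and kinesin-6 builds the midzone used when a polar body is cut off. Other kinesins carry vesicles and mitochondria or work in cilia and flagella, and a mouse oocyte bears no motile cilium. A fully grown oocyte is nearly silent in transcription, so the RNA on these arrays is largely a maternal store.

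In somatic cells many genes of the spindle machinery are switched on in G2 and mitosis through a short promoter element of the CHR type, which complexes built on MuvB proteins recognise. The letters TTTGAA, a core form of that element, were searched on both strands in RefSeq promoter windows of the GRCm38.p6 build, which run from 250 bases before to 50 bases after a gene's start. A window was at hand for 31 of the 38 kinesin genes. The letters stood in the windows of 12 of these 31 genes: 9 of 12 spindle and division kinesins (Kif11, Kif14, Kif15, Kif18b, Kif20b, Kif22, Kif23, Kif2c and Kif4, but not Kif18a, Kif2a or Kif2b) and 3 of 19 other kinesins, beside 17.9% of all 32851 windows. They were present for 8 of the 22 genes that were above background on every array and for 4 of the 9 that were not. CCAAT, a box often found in such promoters which can overlap the first motif by an end base at most, was found on either strand for 7 of the 12 spindle genes and 7 of the 19 others, against 37.4% of all windows. These matches describe the letters of a window and no binding. The windows of Kif23, Kif20b and Kif4, whose transcripts were far above background in every oocyte, and of Kif15, which was above background in none, were picked for printing after the values were seen, with TTTGAA or its reverse complement TTCAAA in capitals. Each is written 5′ to 3′ on the gene's strand: Kif23 at chr9:61946750-61947049 (minus strand), Kif20b at chr19:34922108-34922407 (plus), Kif4 at chrX:100625815-100626114 (plus) and Kif15 at chr9:122950831-122951130 (plus).
Kif23: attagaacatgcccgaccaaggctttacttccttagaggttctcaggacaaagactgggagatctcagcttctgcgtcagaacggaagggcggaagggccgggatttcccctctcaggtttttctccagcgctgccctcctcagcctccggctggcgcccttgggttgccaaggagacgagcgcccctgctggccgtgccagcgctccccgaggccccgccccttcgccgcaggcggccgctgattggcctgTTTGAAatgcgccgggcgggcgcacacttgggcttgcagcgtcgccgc
Kif20b: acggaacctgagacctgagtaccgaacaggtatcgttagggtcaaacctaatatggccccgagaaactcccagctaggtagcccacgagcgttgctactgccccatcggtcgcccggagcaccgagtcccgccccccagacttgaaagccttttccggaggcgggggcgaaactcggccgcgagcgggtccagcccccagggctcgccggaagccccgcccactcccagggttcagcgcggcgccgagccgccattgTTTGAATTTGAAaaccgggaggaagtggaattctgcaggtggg
Kif4: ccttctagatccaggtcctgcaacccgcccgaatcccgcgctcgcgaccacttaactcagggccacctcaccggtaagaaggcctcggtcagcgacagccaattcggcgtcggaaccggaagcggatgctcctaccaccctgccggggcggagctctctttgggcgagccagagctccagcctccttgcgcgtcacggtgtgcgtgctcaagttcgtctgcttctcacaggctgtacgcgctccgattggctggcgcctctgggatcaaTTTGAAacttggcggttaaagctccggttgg
Kif15: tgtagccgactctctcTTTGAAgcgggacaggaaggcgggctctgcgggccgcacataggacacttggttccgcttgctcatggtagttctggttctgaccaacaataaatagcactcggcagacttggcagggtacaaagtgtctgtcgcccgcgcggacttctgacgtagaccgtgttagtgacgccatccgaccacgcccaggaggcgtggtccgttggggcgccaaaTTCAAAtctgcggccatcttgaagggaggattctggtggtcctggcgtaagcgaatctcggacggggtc
Kif20b holds 2 copies of TTTGAA side by side, and in Kif23, Kif20b and Kif4 the match lies in the bases after the start. Kif15 holds 1 match on each strand, both before the start.

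Kinesin transcripts were widely present in these oocytes. Of the 38 genes, 26 (68.4%) were above background on all 9 arrays, beside 43.1% of all 19938 genes, 8 were above it on 1 to 7 arrays, and Kif2b, Kif15, Kif4-ps and Kif21a were above it on none. Of 14 spindle and division kinesins, 11 were above background on all 9 arrays and the other 3 on none. Kif4-ps, a pseudogene by its name, came close, at 7.251 on the third PicoPure array beside a background of 7.252. Of 12 transport kinesins 7 were above on all 9 and 1 on none, of 9 cilium and flagellum kinesins 7 were above on all 9, and of the 3 other genes 1 was. With the 99th percentile of the receptor genes as the background, 15 kinesins remained above it on every array: 10 spindle, 3 transport and 2 cilium kinesins. The share of all genes above that stricter level was not counted, so these 15 have no share to stand beside.

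**Figure D1:**
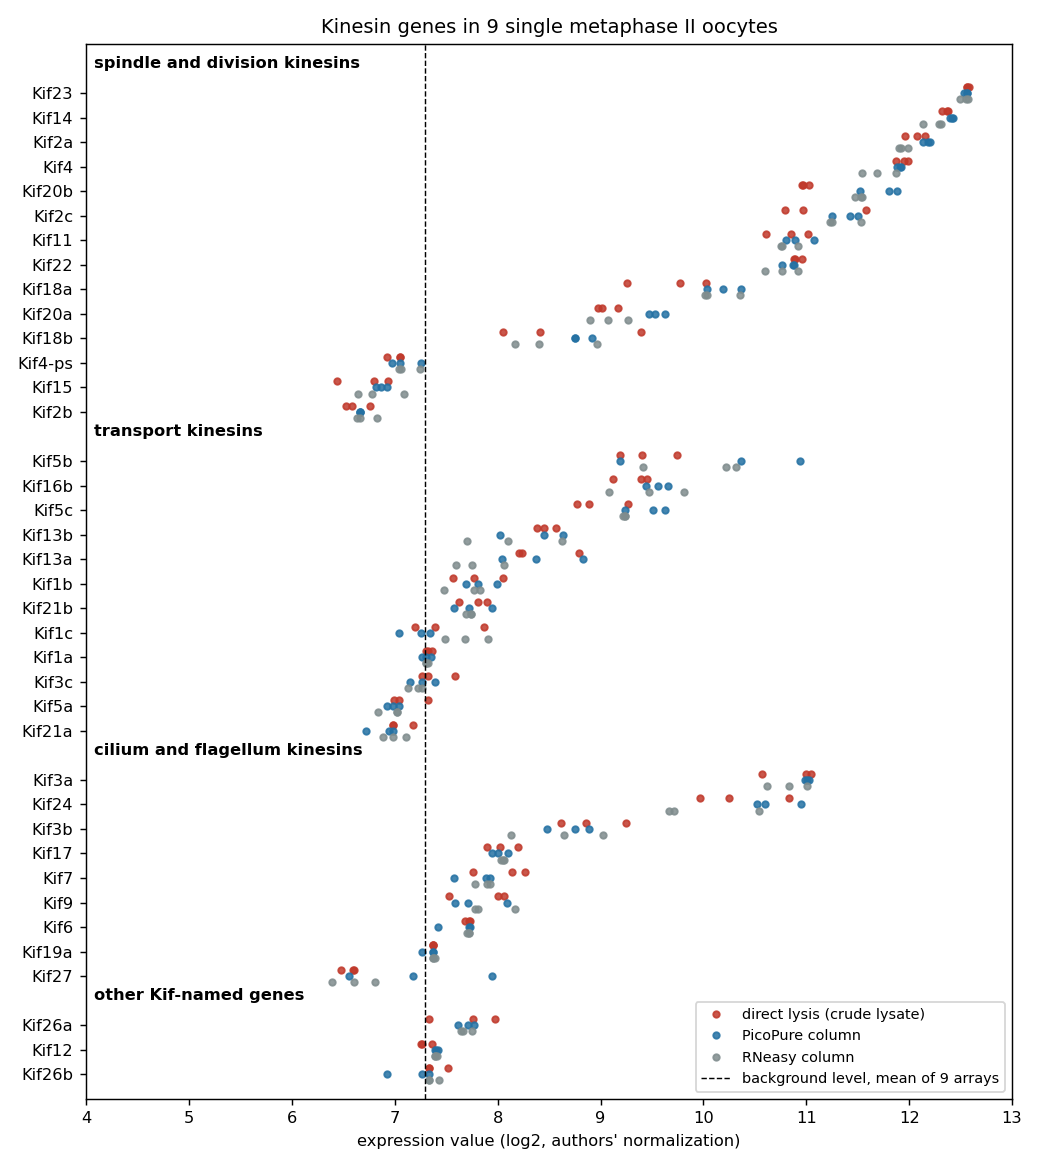
Log2 expression values of the 38 kinesin genes on the 9 arrays (horizontal axis), 1 gene per line, grouped by role and coloured by preparation, with 3 oocytes each. The dashed line marks the mean background of 7.29. On all 9 arrays 11 spindle kinesins lie to its right, Kif18b nearest at 8.05 to 9.39, and the other 3 to its left. Many transport and cilium kinesins lie close to it.

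Among the spindle motors, the kinesin-6 proteins Kif23, Kif20a and Kif20b act at the spindle midzone and in cytokinesis. Kif23, the motor of the centralspindlin complex, read 12.58, 12.56 and 12.57 in crude lysates, 12.53, 12.56 and 12.56 with PicoPure and 12.55, 12.57 and 12.49 with RNeasy. These values spanned 0.09 log2 units over the 9 oocytes, the groups overlapped, and the pooled SD within preparations of 0.026 was the smallest of the 38 genes. Kif20b read 10.96, 10.96 and 11.03 in crude lysates, 11.88, 11.80 and 11.52 with PicoPure and 11.54, 11.47 and 11.54 with RNeasy. Its 3 crude lysates lay below all 6 purified samples, while the kits overlapped. Kif20a, which carries the chromosomal passenger complex to the midzone, read 9.01, 8.97 and 9.17 in crude lysates, 9.53, 9.63 and 9.47 with PicoPure and 9.07, 9.27 and 8.90 with RNeasy. All 3 PicoPure oocytes lay above the 3 RNeasy oocytes, and the crude lysates lay among the RNeasy values.

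Kif11 is the kinesin-5 motor that slides antiparallel microtubules and keeps the spindle bipolar. It read 10.61, 11.02 and 10.85 in crude lysates, 10.89, 10.80 and 11.08 with PicoPure and 10.77, 10.92 and 10.75 with RNeasy. Kif15, a kinesin-12 that can share this work in somatic cells, read 6.94, 6.80 and 6.43 in crude lysates, 6.82, 6.92 and 6.87 with PicoPure and 6.65, 7.09 and 6.78 with RNeasy. No Kif15 value reached its array's background, and for both genes the groups overlapped.

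The kinesin-13 proteins do not walk but take microtubules apart at their ends. Kif2a, which acts at spindle poles, read 11.96, 12.16 and 12.08 in crude lysates, 12.18, 12.14 and 12.20 with PicoPure and 11.92, 11.99 and 11.90 with RNeasy. Kif2c, known as MCAK and active at centromeres, read 10.79, 11.59 and 10.97 in crude lysates, 11.43, 11.25 and 11.50 with PicoPure and 11.23, 11.25 and 11.53 with RNeasy. Kif2a was higher on every PicoPure array than on any RNeasy array, and the first crude lysate was the lowest Kif2c value with the second the highest. Kif2b, the remaining member of the family, was below background on every array, at 6.53 to 6.76 in crude lysates, 6.66 on each of the 3 PicoPure arrays and 6.63 to 6.83 with RNeasy.

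Chromokinesins bind chromosome arms. Kif4, which also binds the midzone protein Prc1, read 11.99, 11.95 and 11.87 in crude lysates, 11.91, 11.92 and 11.88 with PicoPure and 11.55, 11.87 and 11.69 with RNeasy. Kif22, known as Kid, read 10.89, 10.89 and 10.96 in crude lysates, 10.88, 10.77 and 10.87 with PicoPure and 10.76, 10.92 and 10.60 with RNeasy. The RNeasy values of Kif4 all lay below the PicoPure values, and the crude lysates of Kif22 lay above its PicoPure values, with RNeasy overlapping both. Kif4-ps, a pseudogene of Kif4 by its name, lay at 6.93 to 7.05 in crude lysates, 6.97 to 7.25 with PicoPure and 7.04 to 7.25 with RNeasy, below background on every array. How far its probes could take up signal of Kif4 was not tested.

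Kif14, a kinesin-3 needed late in cytokinesis, read 12.37, 12.32 and 12.38 in crude lysates, 12.40, 12.41 and 12.43 with PicoPure and 12.29, 12.14 and 12.31 with RNeasy. The RNeasy values were again below all PicoPure values. The kinesin-8 proteins Kif18a and Kif18b shorten microtubules, Kif18a at kinetochores and Kif18b on astral microtubules. Kif18a read 9.25, 10.02 and 9.77 in crude lysates, 10.19, 10.36 and 10.03 with PicoPure and 10.01, 10.36 and 10.03 with RNeasy. Kif18b read 8.41, 9.39 and 8.05 in crude lysates, 8.92, 8.75 and 8.75 with PicoPure and 8.16, 8.40 and 8.96 with RNeasy. For Kif18a the first and the third crude lysate gave the lowest values, and for Kif18b the second crude lysate was the highest and the third the lowest of all 9.

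Transport kinesins were closer to background. The kinesin-1 heavy chain Kif5b, found in most cell types, carries mitochondria and vesicles. It had the widest spread among the rows that stood for the 38 genes. It read 9.40, 9.19 and 9.75 in crude lysates, 9.19, 10.93 and 10.36 with PicoPure and 10.32, 9.41 and 10.22 with RNeasy. The range of 1.75 log2 units is 3.36-fold, and values of 9.19 occurred in a crude lysate and in a PicoPure oocyte alike. Its relative Kif5c, known from neurons, averaged 8.98 ± 0.26 in crude lysates, 9.46 ± 0.20 with PicoPure and 9.23 ± 0.01 with RNeasy (SD, n = 3 each), above background on every array. Kif5a, the third heavy chain, was above background on 1 array.

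Of the kinesin-3 carriers, Kif16b, which moves early endosomes, averaged 9.32 ± 0.18 in crude lysates, 9.55 ± 0.11 with PicoPure and 9.46 ± 0.37 with RNeasy. Kif13a, which moves endosomal cargo, averaged 8.41 ± 0.33 in crude lysates, 8.42 ± 0.40 with PicoPure and 7.80 ± 0.24 with RNeasy (SD, n = 3 each). Kif13b, Kif1b and the kinesin-4 protein Kif21b were also above background on all 9 arrays, with means over the arrays of 8.33, 7.77 and 7.75. Kif1a was above background on 7 arrays with a mean of 7.32, Kif3c on 5 with a mean of 7.29, and Kif21a on none with a mean of 6.97.

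Most cilium and flagellum kinesins also lay above background. Kif3a, a subunit of the heterotrimeric kinesin-2 of intraflagellar transport, read 11.05, 10.57 and 10.99 in crude lysates, 11.02, 11.01 and 10.99 with PicoPure and 11.00, 10.83 and 10.61 with RNeasy. Its partner subunit Kif3b averaged 8.91 ± 0.32 in crude lysates, 8.71 ± 0.21 with PicoPure and 8.60 ± 0.45 with RNeasy (SD, n = 3 each). Kif17, the homodimeric kinesin-2, read 8.02, 7.89 and 8.20 in crude lysates, 8.01, 7.95 and 8.10 with PicoPure and 8.05, 8.07 and 8.04 with RNeasy. Every Kif17 and Kif3a value was above background, whereas the third subunit of the Kif3 motor, Kifap3, had a mean of 6.62 and was above it on none.

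Kif24, a kinesin-13-related protein of the mother centriole that holds back cilium growth, read 10.25, 9.96 and 10.83 in crude lysates, 10.95, 10.60 and 10.52 with PicoPure and 9.72, 10.54 and 9.67 with RNeasy. RNeasy oocytes 1 and 3 were the lowest. Kif7, a Hedgehog regulator at the cilium tip, Kif9, a motor of the sperm flagellum, and Kif6 were above background on all 9 arrays with means of 7.91, 7.86 and 7.68. Kif27, a relative of Kif7, read 6.60, 6.60 and 6.48 in crude lysates, 7.18, 7.94 and 6.55 with PicoPure and 6.60, 6.81 and 6.39 with RNeasy. Its 1 value above background was that of the second PicoPure oocyte, and the other 8 lay below. Kif19a, which shortens microtubules at cilium tips, lay at 7.27 to 7.39 and was above background on 7 arrays. The same value of 7.374 was above the level of the second RNeasy array (7.265) and below that of the first (7.409). Its highest value, 7.392, was below the level of the third (7.475), so this count follows the level of the array.

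The remaining genes were Kif26a, a kinesin-11 without motor activity, above background on all 9 arrays with a mean of 7.69, and Kif26b and Kif12, each above it on 6. Exactly equal values recurred: 7 of the 38 kinesins (Kif19a, Kif6, Kif26b, Kif2b, Kif4-ps, Kif21a and Kif5c) had the same value to every deposited digit on 3 or more arrays, as did 30.2% of all genes. Kif5c, with a mean of 9.22, was the one well above background. For Kif19a this held on 7 of 9 arrays, so its small SD is in part a repeat of 1 number, and the source of the repeats was not tested.

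Purification was set against the crude lysate in limma, a linear model with moderated variances over all 19938 genes and Benjamini-Hochberg adjustment at 0.05. Kif20b was lower in crude lysate, at 10.98 ± 0.04 (SD, n = 3), against 11.63 ± 0.17 in purified RNA (SD, n = 6). The difference of -0.64 ± 0.08 (log2, SE; 95% interval -0.83 to -0.45) makes it 1.56-fold lower, with a limma adjusted p of 0.0188. Kif20b was the 1 kinesin of 38 that passed, beside 1.01% of all genes, of which 133 were lower (0.667%) and 68 higher (0.341%) in crude lysate (101 of 184 higher after a further quantile normalization). The share of kinesins called, 2.63%, thus rests on 1 gene. Its adjusted p rose above the threshold without the second crude lysate (0.0565), the second PicoPure oocyte (0.0570), the first RNeasy oocyte (0.0619) or the second (0.0524), with a difference of -0.69 to -0.53 under all 18 alternatives.

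Set against each kit, Kif20b in crude lysate differed from PicoPure by -0.75 ± 0.10 (log2, SE, limma adjusted p = 0.0254, 1.68-fold lower), again the 1 kinesin called beside 0.597% of all genes (0.426% lower, 0.171% higher). Against RNeasy it differed by -0.53 ± 0.10 (limma adjusted p = 0.0696), and 0 kinesins were called (limma; 3 at an unadjusted p under 0.05, beside 13.4% of all genes), against a background of 0.436% called (0.271% lower, 0.166% higher). A moderated F test over the 3 preparations called Kif20b alone among the kinesins (F = 32.0, limma adjusted p = 0.0401), beside 0.637% of all genes. These contrasts share arrays and are not independent of each other, and whether the difference from PicoPure exceeds that from RNeasy is the kit comparison of Kif20b, 0.22 ± 0.10 (SE, limma adjusted p = 0.632). The call against PicoPure was lost after a further quantile normalization (0.0551) and in each fit that left out 1 array (0.0541 to 0.116), except that without the third PicoPure oocyte (0.0188), and so was that of the F test (0.0793 after quantile normalization, 0.0854 to 0.116 with 1 array left out, 0.0293 without the third PicoPure oocyte).

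**Figure D2:**
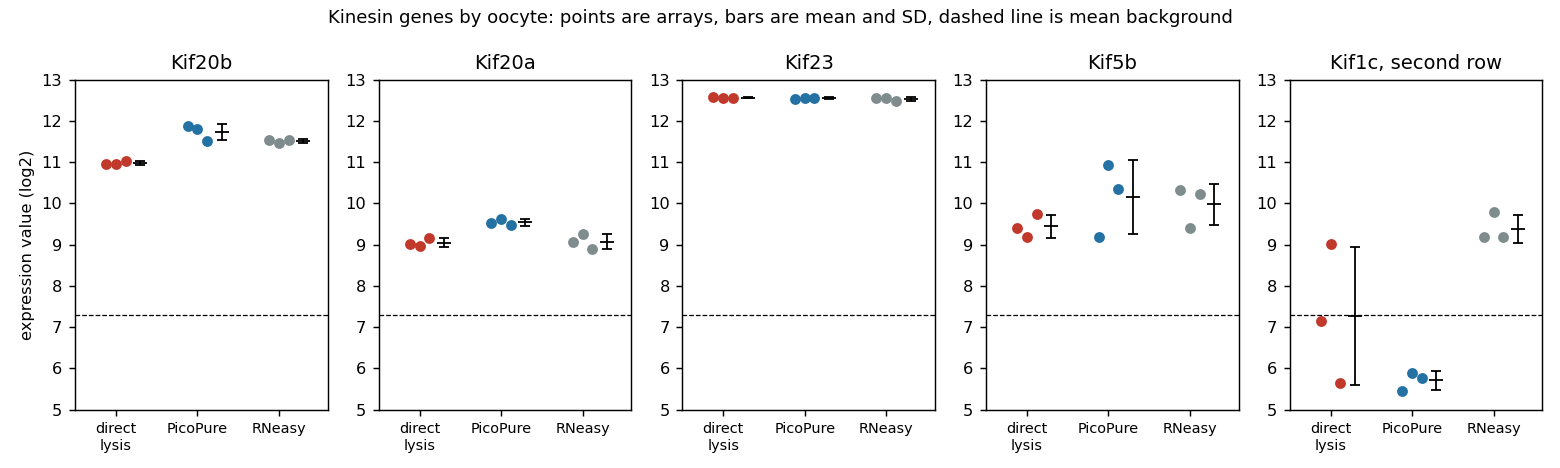
Log2 expression values (vertical axis) of Kif20b, Kif20a, Kif23, Kif5b and the second row of Kif1c in 3 oocytes per preparation (points, 1 per array), with the mean and SD (n = 3) beside them and the mean background as a dashed line. Kif20b sits near 10.98 in crude lysates, below all 6 purified oocytes, Kif23 lies on 1 level in all 9, and the second Kif1c row is split between the kits.

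The other 37 kinesins did not pass the test, with differences between crude lysate and purified RNA of -0.62 to 0.30 and adjusted p-values from 0.245 upward. Unadjusted p was under 0.05 for 4 kinesins (Kif20b, Kif5c, Kif18a and Kif20a) of 38, beside 14.2% of all genes. Kif18a averaged 9.68 ± 0.39 in crude lysate (n = 3) against 10.17 ± 0.17 in purified RNA (SD, n = 6), a difference of -0.48 ± 0.17 (limma adjusted p = 0.271). It was -0.27 without the first crude lysate and -0.32 after quantile normalization. Kif5c differed by -0.37 ± 0.12 (SE, limma adjusted p = 0.245) and Kif20a by -0.26 ± 0.09 (0.276), or -0.11 after quantile normalization. Of the 6 purified Kif5c values, 3 were the same number. Kif23, at 0.02 with an interval of -0.09 to 0.13, was bounded closely, and 37 of the 38 intervals lay within 1 log2 unit of 0, the exception being Kif5b at -0.62 ± 0.38 (interval -1.50 to 0.25).

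By role, 1 of 14 spindle kinesins passed the test as lower in crude lysate and 0 as higher, beside 0.667% and 0.341% of all genes. The median difference of the spindle kinesins was -0.05, with 9 of 14 below 0. Of 12 transport, 9 cilium and 3 other kinesins, 0 passed in either direction, with medians of 0.04, 0.01 and -0.00. The median over all 38 kinesins was 0.01 with 16 below 0, beside 0.00 over all genes with 49.4% below 0. Scaling moved this balance: 26 of 38 kinesins were positive after quantile normalization and 16 of 38 after centring each array on its median. Crude lysates lay wholly below purified samples for Kif20b and Kif12 and wholly above for 0 of 38, beside 3.72% and 4.31% of all genes. Kif12 read 7.26, 7.26 and 7.36 in crude lysates, 7.39, 7.42 and 7.40 with PicoPure and 7.39, 7.41 and 7.39 with RNeasy, a difference of -0.10 ± 0.05 (SE, limma adjusted p = 0.398) at the edge of background.

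**Figure D3:**
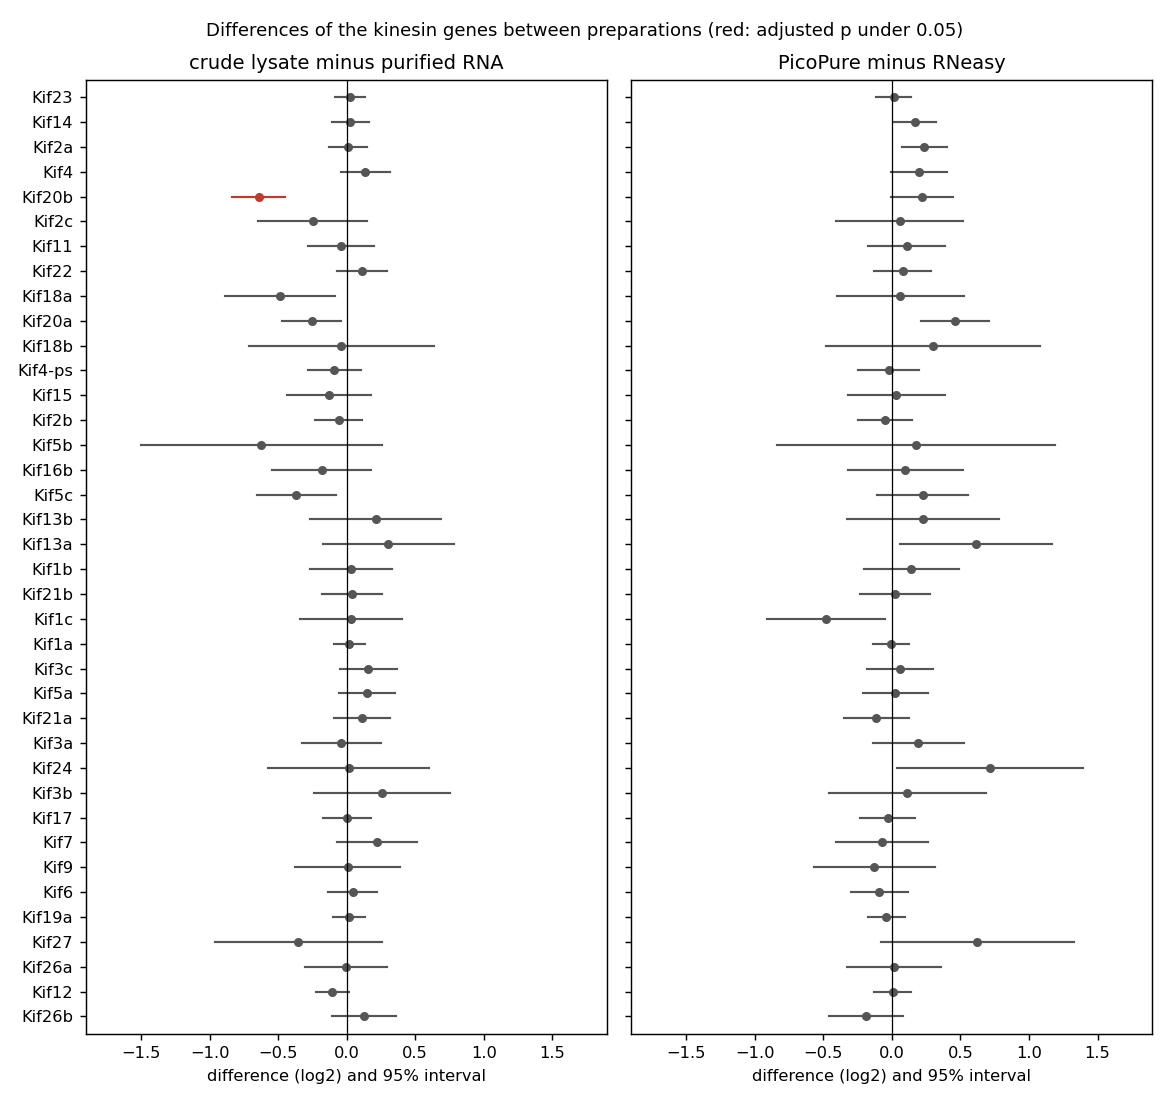
Differences in log2 expression value (horizontal axes, points) with 95% intervals for each of the 38 kinesin genes, crude lysate minus purified RNA on 1 panel and PicoPure minus RNeasy on the other, from the limma fit. Kif20b at -0.64 is the 1 gene past an adjusted p of 0.05 (red), and most other intervals include 0.

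Between the column kits, 0 of 38 kinesins passed the test (limma; 6 at an unadjusted p under 0.05, beside 7.98% of all genes), and 0.0602% of all genes did (0.0401% higher and 0.0201% lower with PicoPure). On the rows that stood for the genes, the differences, PicoPure minus RNeasy, ran from -0.48 to 0.72. The second row of Kif1c, described below, differed by -3.68 in the measured values, with its PicoPure values below background. Kif20a had the smallest adjusted p, with 9.54 ± 0.08 in PicoPure and 9.08 ± 0.18 in RNeasy oocytes (SD, n = 3 each), a difference of 0.46 ± 0.11 (SE; interval 0.22 to 0.71, limma adjusted p = 0.314). Kif2a differed by 0.24 ± 0.07 (limma adjusted p = 0.446), Kif14 by 0.17 ± 0.07 (0.577) and Kif4 by 0.20 ± 0.09 (0.637). With the mean of its rows Kif14 differed by 0.11, and without the first RNeasy oocyte Kif4 differed by 0.12. These 4 genes were higher on every PicoPure than on every RNeasy array, and Kif1c was lower on each, beside 6.92% of all genes wholly higher and 7.03% wholly lower, so 5 of 38 kinesins (13.2%) against 13.9% of genes did not overlap.

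Wide intervals went with Kif24, at 0.72 ± 0.29 (SE, interval 0.04 to 1.39), and Kif13a, at 0.61 ± 0.24, with limma adjusted p-values of 0.596 and 0.571. For 33 of 38 kinesins the interval lay within 1 log2 unit of 0. Of the 38 differences 27 were positive, with a median of 0.06, beside 58.5% of all genes negative, with a median of -0.03. After quantile normalization 30 kinesins were positive, with a median of 0.06, and the balance of all genes turned, to 44.4% negative with a median of 0.02. After median centring 28 kinesins were positive, with a median of 0.08, and 53.9% of all genes were negative, with a median of -0.01. For spindle kinesins 12 of 14 differences were positive, with a median of 0.09. No test was made of these counts. All genes include 35.1% that were above background on no array, and genes of a level like that of the kinesins were not counted apart.

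Differences between preparations stood beside differences between arrays of 1 preparation. As each array held 1 oocyte, differences between oocytes and technical variation cannot be told apart in them. The median pooled SD within preparations was 0.150 for the kinesins and 0.152 for all genes, and 0.190 and 0.193 for those above background on all 9 arrays. Among the rows that stood for the genes, the widest were Kif5b at 0.611, Kif18b at 0.467, Kif27 at 0.420 and Kif24 at 0.404. The narrowest was Kif23 at 0.026. The second row of Kif1c, described below, was wider than any of these, with a pooled SD of 0.999 and a range of 4.33. For 7 of 38 kinesins (18.4%) the range over 9 oocytes exceeded 1 log2 unit, beside 22.9% of all genes.

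**Figure D4:**
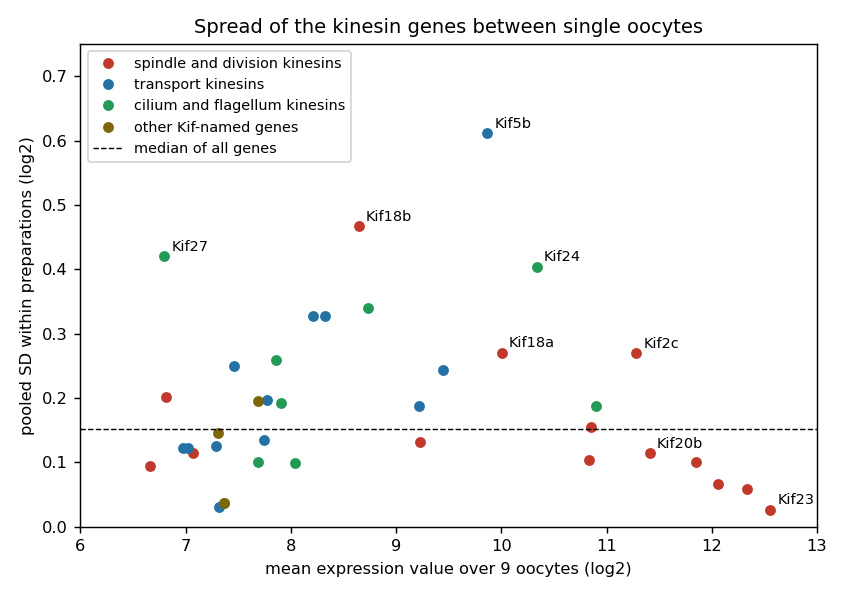
Pooled SD within preparations (vertical axis, log2) against the mean over 9 arrays (horizontal axis, log2) for the 38 kinesin genes, coloured by role, with the median of all genes, 0.152, as a dashed line. Kif5b stands highest at 0.611 and Kif23, at the right, lowest at 0.026. Each gene is shown by 1 row, and the second row of Kif1c is not drawn.

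Kif1c, a kinesin-3 of vesicle transport, was on 2 rows with nearly the same mean over the 9 arrays, 7.464 and 7.458, and the first stood for the gene. The second row read 7.16, 9.01 and 5.65 in crude lysates, 5.46, 5.90 and 5.78 with PicoPure and 9.19, 9.78 and 9.20 with RNeasy. The RNeasy values were high and the PicoPure values below background, while the crude lysates were spread over both. The row averaged 5.71 ± 0.23 with PicoPure and 9.39 ± 0.34 with RNeasy (SD, n = 3 each). As the row was above background on 0 of the 3 PicoPure arrays, the PicoPure mean is only a bound: with those arrays set to their background, RNeasy was at least 4.45-fold higher.

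Adjusted over all 21789 named rows, the limma p of the difference in the measured values was 0.206 in the fit over all 9 arrays, 0.0759 in a fit of the 6 kit arrays alone, and 0.0521 to 0.436 with 1 array left out, 0.0521 being without the second crude lysate. The first row read 7.39, 7.87 and 7.19 in crude lysates, 7.26, 7.35 and 7.04 with PicoPure and 7.68, 7.49 and 7.91 with RNeasy, with the same order of the kits and the second crude lysate also the highest of the 3. This row was singled out after its values were seen. Of the other second rows, those of Kif14 (5.16 to 5.28), Kif7, Kif26b and Kif4-ps were above background on no array and that of Kif6 on 1, so for Kif14 and Kif7 the gene was above background on one row and below it on the other.

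Of 5 listed motors of the kinesin superfamily that the naming rule left out, 3 had a row tied to exactly 1 symbol. Kifc1 and Kifc5b had none and are not described. Cenpe, the kinesin-7 that moves chromosomes to the metaphase plate, averaged 11.09 ± 0.63 in crude lysate (n = 3) against 11.64 ± 0.16 in purified RNA (SD, n = 6), a difference of -0.55 ± 0.23 (SE, limma adjusted p = 0.341). The minus-end-directed Kifc2 and Kifc3 were above background on all 9 arrays. In limma, 0 of these 3 motors passed any of the contrasts. Between crude lysate and purified RNA, 1 was at an unadjusted p under 0.05, beside 1.01% of all genes past the threshold and 14.2% at that p. The same p was met by 1 between crude lysate and PicoPure, 0 between crude lysate and RNeasy and 0 between the kits, beside 12.3%, 13.4% and 7.98% of all genes.

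Of 23 listed subunits and partners of kinesins, 22 had a row tied to exactly 1 symbol. Of these, 16 were above background on all 9 arrays, and 0 of 22 passed in any contrast in limma. Between crude lysate and purified RNA, 3 had an unadjusted p under 0.05, beside 1.01% of all genes past the threshold and 14.2% at that p. The same p in limma was met by 5 between crude lysate and PicoPure, 1 between crude lysate and RNeasy and 3 between the kits. Of all genes, 12.3%, 13.4% and 7.98% met it, and 0.597%, 0.436% and 0.0602% passed the threshold. The midzone protein Prc1 differed by -0.14 ± 0.06 (SE, limma adjusted p = 0.361) and the kinetochore protein Cenpf by -0.23 ± 0.07 (0.193). Kifbp, the kinesin-binding protein, went the other way, at 11.10 ± 0.19 in crude lysate (n = 3) against 10.63 ± 0.26 in purified RNA (SD, n = 6), with a difference of 0.47 ± 0.16 (0.245). Plekhm2, which links kinesin-1 to lysosomes, differed by 0.25 ± 0.10 (0.296). The median of the 22 differences was -0.04, beside 0.00 for all genes.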

How the data were processed

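The authors deposited 1 table of log2 expression values for 9 arrays, 35556 rows with 0 missing values (2.41 to 13.90, array medians 7.12 to 7.24). Per the submitters' processing notes, the tools were GCOS, GCRMA and Affymetrix Expression Console, with no version or role given. The log2 scale is not stated and was read from the values, no scanner files were used, and no genome build is given in the sources. The number of arrays limits the precision.

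Of the rows, 21789 had 1 gene symbol in the platform's probe table, 1621 several and 12146 none, and 21698 had an Entrez identifier in RefSeq (GRCm38.p6), with 0 symbols changed. Each gene kept its row of highest mean, giving 19938 genes, with no filter. limma 3.58.1 in R 4.3.3 (lmFit, eBayes) was fitted over 3 groups and 9 arrays, two-sided, and tested on simulated data. Intervals are 95%, unadjusted.

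The members and lists were chosen with earlier results of these data known. Values on every array are given for the 8 kinesins with the highest means, those past the threshold, the 4 with the largest pooled SD and a set panel. Of the other lists, the 4 genes with the smallest p are named, and further genes were added after their values were seen. Protein sequences were not used here, and promoter windows are shown instead. Alternatives were other scalings, filters, row rules, variance models, array weights, a replicate block and leaving out each array.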

Additional observations from a re-analysis of the deposited data

How the results depend on the processing

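The direction of the Kif20b difference between crude lysate and purified RNA stayed the same in all 18 alternatives, and its call held in 13. Same-numbered oocytes of different preparations did not deviate together (correlations of -0.09 to 0.13, over 0.1 in 1 of 9 pairs), so the numbers were not taken to pair samples. With the replicate block the adjusted p of Kif20b was 0.0737 for crude lysate against purified RNA (difference -0.64), 0.0947 against PicoPure (-0.75) and 0.129 for the F test (F = 27.3), which leaves 0 kinesins called. Further quantile normalization gave 0 kinesins called against PicoPure (difference -0.64, adjusted p = 0.0551) and in the F test (F = 19.9, 0.0793), and array weights gave 0 in the F test (F = 24.3, 0.0527). With 1 array left out, Kif20b differed by -0.69 to -0.60 from purified RNA and by -0.86 to -0.68 from PicoPure, with an F of 21.6 to 75.5. The kinesins called then numbered 0 to 1 against purified RNA, PicoPure and RNeasy and in the F test. The 1 call against RNeasy came without the third PicoPure oocyte. With the 99th percentile as the background, 15 kinesins were above it on every array, and the share of all genes at that level was not counted. Crude lysate against purified RNA called 201 genes, against 25 with the block, 24 to 232 with 1 array left out, and 443 when every row, named or not, was tested. Against PicoPure the 119 became 17, 14 to 123 and 198, against RNeasy the 87 became 15, 3 to 95 and 309, and in the F test the 127 became 14, 4 to 96 and 267. PicoPure against RNeasy called 12 genes, but 0 with the block, with an intensity trend and robust variances or with the 6 kit arrays alone (limma; an unadjusted p under 0.05 was met by 1591 genes in the fit of 9 arrays), 51 with array weights, 27 over every row and 0 to 15 with 1 array left out. Quantile normalization raised the share of higher calls against RNeasy (69 of 111 beside 33 of 87) and against PicoPure (42 of 90 beside 34 of 119). Small differences that did not pass changed sign. With 1 array left out, crude lysate minus purified RNA ran over -0.14 to 0.067 for Kif11, -0.00057 to 0.044 for Kif14, -0.24 to 0.015 for Kif15, -0.077 to 0.076 for Kif17, -0.43 to 0.24 for Kif18b, -0.23 to 0.20 for Kif24, -0.038 to 0.062 for Kif2a and -0.13 to 0.11 for Kif3a. Quantile normalization gave 0.098 for Kif11, 0.054 for Kif18b and 0.088 for Kif3a, and median centring -0.017 for Kif17, -0.0068 for Kif24 and -0.011 for Kif2a. PicoPure minus RNeasy ran over -0.065 to 0.16 for Kif15, -0.073 to 0.0041 for Kif17, -0.022 to 0.17 for Kif18a, -0.0040 to 0.16 for Kif22, -0.0085 to 0.031 for Kif23 and -0.21 to 0.66 for Kif5b. With low values raised to background Kif15 stood at -0.15, but each of its values was then its array's background level. That number compares the background levels of the arrays and not Kif15. Why the other settings move the values was not tested. The fit of the kit arrays alone and the refits of both Kif1c rows were chosen after seeing the data.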

Other observations

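The other microtubule motor of the cell is cytoplasmic dynein with its activator dynactin. Of 31 listed genes, 25 had a row tied to exactly 1 symbol, and 22 of them were above background on all 9 arrays. Dync1i1 and Dynlrb2 were above it on none. In limma, 0 of 25 passed between crude lysate and purified RNA (2 at an unadjusted p under 0.05) or in any other contrast. Of all genes, 1.01% passed the first of these and 14.2% were at that p. The same p was met by 3 between crude lysate and PicoPure, 2 between crude lysate and RNeasy and 1 between the kits, beside 12.3%, 13.4% and 7.98% of all genes. The median difference of crude lysate from purified RNA was -0.05. Hook1, an adaptor that activates dynein, had the smallest p, at 10.34 ± 0.26 in crude lysate (n = 3) against 11.04 ± 0.20 in purified RNA (SD, n = 6), a difference of -0.71 ± 0.13 (SE, limma adjusted p = 0.0589). Its 3 crude lysates, at 10.06 to 10.56, lay below the purified samples, at 10.70 to 11.25. The intermediate chain Dync1i2 differed by -0.34 ± 0.12 (0.270), the dynactin subunit Dctn2 by -0.40 ± 0.18 (0.360) and the dynein regulator Nde1 by -0.45 ± 0.20 (0.363).

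Axonemal dynein heavy chains, which beat cilia and flagella, had 15 genes on rows tied to exactly 1 symbol. Of these, 3 (Dnah10, Dnah3 and Dnah7c) exceeded background in every oocyte and 6 in none. Dnah10 averaged 9.86 ± 0.13 in crude lysate, 9.93 ± 0.23 with PicoPure and 9.07 ± 0.15 with RNeasy (SD, n = 3 each). Its difference of crude lysate from purified RNA, 0.36 ± 0.12 (limma adjusted p = 0.229), was -0.07 from PicoPure (0.861) and 0.79 from RNeasy (0.0586), and PicoPure minus RNeasy was 0.86 (0.117). Dnah6, below background on every array, differed by 0.26 (0.160), Dnah8 by 0.20 (0.362) and Dnah3 by -0.27 (0.371). In limma, 0 of 15 passed in any contrast, with 2 at an unadjusted p under 0.05 between crude lysate and purified RNA, beside 1.01% of all genes past the threshold and 14.2% at that p. The same p was met by 2 between crude lysate and PicoPure, 3 between crude lysate and RNeasy and 2 between the kits, beside 12.3%, 13.4% and 7.98% of all genes.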
